A study of Homo sapiens with 62 samples.

Results

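Transcripts of 10 genes of the EGF ligand and ERBB receptor system were followed in 2 human pancreatic ductal adenocarcinoma lines by SLAM-seq, which separates newly made from older RNA. The genes were taken by name from the tables of both lines, 10 of 29794 genes. No measured value entered that rule, but earlier results of these data were known when the list was chosen. They were the ligands AREG, EREG, HBEGF, TGFA, BTC and EPGN, the receptors EGFR, ERBB2 and ERBB3, and the feedback inhibitor ERRFI1. All 10 passed the filter on low counts in the dTAGv1 and CB6644 comparisons of T3M-4 and 9 in that of NVP2, where BTC did not. In AsPC-1, 8 passed in each treatment comparison, all but BTC and EPGN, which is a filter on reads and no sign that the genes are silent.

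ERBB receptors are receptor tyrosine kinases that signal as pairs. EGF-like ligands are made as membrane-anchored precursors, are released by cleavage and bind EGFR, some of them ERBB4 as well. ERBB2 has no known ligand of its own and ERBB3 has little kinase activity, so both act mainly as partners, while ERRFI1 (also called MIG6) is an intracellular protein that binds activated EGFR and restrains it. In the pancreas, TGFA and EGFR are known for their part in the change of acinar cells towards ductal cells that precedes this cancer.

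AsPC-1 served as a model of the classical subtype and T3M-4 of the basal-like subtype, with 1 line for each. All cells, controls included, carried the genotype FKBP12-F36V-FLAG-KLF5_sgEndogenousKLF5, in which the endogenous gene of the transcription factor KLF5 is disrupted and a degron-tagged copy takes its place. dTAGv1, which sends the tagged protein for degradation, was compared with the inactive analogue dTAG-NEG after 4 h (10 libraries each in AsPC-1, 4 each in T3M-4). CB6644, an inhibitor of the RUVBL1/2 ATPases, was compared with DMSO after 4 h (5 libraries each in AsPC-1, 4 each in T3M-4) and after 12 h (4 each, AsPC-1). NVP2, an inhibitor of the transcription kinase CDK9, was given for 4 h (4 libraries in each line) and compared with the same DMSO libraries as CB6644 at 4 h.

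Cells took up 4-thiouridine for 2 h before harvest, and reads that carry T>C conversions stand for RNA made in that time. The 62 libraries held from 2240998 to 27982537 T>C reads and from 82676553 to 244524608 reads in all. Libraries are numbered as in the labels, and the first digit is the replicate number. Several libraries share a replicate number and nothing in the labels says that they were separate cultures, so the p-values may measure technical spread in part. Control libraries carried epithelial transcripts (EPCAM at a median of 241 CPM of all reads in AsPC-1 and 36.4 in T3M-4), HNF4A at a median of 16.2 and 0.193 CPM, and TP63 at 0 and 28 CPM. The leukocyte marker PTPRC was near 0 (0.0347 and 0.0252 CPM), as was the fibroblast marker COL1A2, at 0 in both, while COL1A1 had 7.37 CPM in T3M-4. The degrader acts on the KLF5 protein, so reads of the KLF5 gene do not check it. They were higher after dTAGv1, by 0.60 on the log2 scale in AsPC-1 and by 0.90 in T3M-4.

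Of the ligand genes, 4 lie in 1 stretch of chromosome 4 (GRCh38, GENCODE v44), from EPGN at 74308470 over EREG and AREG to the end of BTC at 74794523, a span of 486 kb. The gaps between neighbours were 48.4, 56.4 and 289.8 kb. HBEGF lies at 140332843 to 140346603 of chromosome 5, TGFA at 70447284 to 70554193 of chromosome 2, EGFR at 55019017 to 55211628 of chromosome 7, ERBB2 at 39687914 to 39730426 of chromosome 17, ERBB3 at 56076799 to 56103505 of chromosome 12 and ERRFI1 at 8004404 to 8026309 of chromosome 1. The counted reads lie in 3′ untranslated regions, and those of ERBB2 and ERRFI1 overlap genes on the opposite strand (MIEN1 and a long noncoding RNA). Whether strand was used in counting is not given in the sources used here, so reads of these pairs may be mixed. The region of ERBB3 shares 31 bases with a gene on the same strand (ENSG00000257411), which strand could not separate.

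Because the labelled share of a transcript depends on how fast it turns over, the 3′ untranslated regions were searched for ATTTA, the core letters of AU-rich elements, which are known from short-lived mRNAs. AREG had 4 copies in 265 bases of its GENCODE transcript (15.1 per kb, above 99.6% of 19550 genes), BTC 12 in 1918 bases (6.26 per kb, above 94.8%), EREG 20 in 3941 bases (5.07 per kb, above 91.1%), TGFA 13 in 3575 bases (3.64 per kb, above 80.9%), HBEGF 5 in 1456 bases (3.43 per kb, above 78.8%) and ERRFI1 5 in 1483 bases (3.37 per kb, above 78.1%). Of all genes 67.5% held at least 1 copy, with a median of 1.5 per kb, which was also the rate of EGFR (9 in 6011 bases). EPGN held 5 in 2152 bases (2.32 per kb), ERBB3 2 in 1450 bases (1.38 per kb) and ERBB2 0 in 614 bases. Whether the rate goes with the labelled shares given below was not tested. A match is a string of letters, and nothing follows from it about a protein that might bind. One window of 30 bases is printed for each of 5 genes, read from GRCh38 on the strand of the gene with each ATTTA in capitals. Each is the window with the most copies in its region, so it is not typical of the region. The 5 are among the transcripts with high labelled shares or the changes described below. EPGN is another of these and is not printed, and its window held 1 copy.
AREG, chr4:74454930-74454959, plus strand: tcaagttgtaaataATTTATTTAatATTTA
EREG, chr4:74387365-74387394, plus strand: aatccATTTAtttcATTTAcaaaagATTTA
HBEGF, chr5:140333666-140333695, minus strand: tATTTAttttattctatgtatgttaATTTA
TGFA, chr2:70447479-70447508, minus strand: gaaaaggttaatATTTAatgttttaATTTA
ERRFI1, chr1:8012992-8013021, minus strand: tggaaaaaagtcttacaagtctataATTTA

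Promoter sequences from RefSeq (GRCh38.p14, 250 bases before to 50 after a start site) were found for 9 of the 10 members, in 11 promoters. They are printed for TGFA, HBEGF and ERRFI1, chosen after their values were seen because they were called or did not overlap with controls after KLF5 degradation in 1 or both lines. Capitals mark CACCC, a core of sites that KLF proteins are known to bind, and GGGCGG, the GC box, searched on both strands with overlapping matches counted. CACCC was in 59.9% and GGGCGG in 45.0% of 35116 RefSeq promoters. For TGFA RefSeq gives 2 promoters. The first, printed here, held 2 and 4 matches, and the second, at chr2:70553397-70553696, held 1 and 0. The promoter of HBEGF held 0 and 5 and that of ERRFI1 0 and 1. Of the members not printed, BTC held 5 and 1, AREG 2 and 1, EREG and EPGN 1 and 0 each, and ERBB2 0 and 0. The first promoter of EGFR held 1 and 3 and the second 0 and 0. Whether these counts go with the changes was not tested, and none of this says where a factor binds.
TGFA, chr2:70553777-70554076, minus strand: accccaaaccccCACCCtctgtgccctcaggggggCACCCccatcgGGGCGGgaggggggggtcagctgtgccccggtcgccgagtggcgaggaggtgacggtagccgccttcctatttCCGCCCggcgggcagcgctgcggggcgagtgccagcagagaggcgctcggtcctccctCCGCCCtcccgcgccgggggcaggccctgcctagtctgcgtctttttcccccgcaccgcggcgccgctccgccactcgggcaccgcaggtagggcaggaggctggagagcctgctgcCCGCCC
HBEGF, chr5:140346554-140346853, minus strand: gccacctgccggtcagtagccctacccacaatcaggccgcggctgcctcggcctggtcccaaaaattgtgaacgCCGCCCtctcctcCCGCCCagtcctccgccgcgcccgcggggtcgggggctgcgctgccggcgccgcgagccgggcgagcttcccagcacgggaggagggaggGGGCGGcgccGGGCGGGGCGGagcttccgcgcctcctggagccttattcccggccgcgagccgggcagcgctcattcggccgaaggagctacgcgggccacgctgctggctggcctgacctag
ERRFI1, chr1:8026260-8026559, minus strand: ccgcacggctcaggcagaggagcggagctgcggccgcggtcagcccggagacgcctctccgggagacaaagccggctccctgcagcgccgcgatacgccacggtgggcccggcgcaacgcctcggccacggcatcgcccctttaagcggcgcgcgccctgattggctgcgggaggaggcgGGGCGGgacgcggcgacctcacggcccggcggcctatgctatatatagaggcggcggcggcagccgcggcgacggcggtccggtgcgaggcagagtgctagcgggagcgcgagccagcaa

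The 2 lines differed in ligands and receptors before treatment. In DMSO at 4 h, T3M-4 carried more AREG, EREG and HBEGF RNA than AsPC-1, in new and in total RNA alike, and BTC and EPGN were read almost only in T3M-4. EGFR and ERBB3 were lower in T3M-4 in total RNA. Levels here are CPM (counts scaled to library size) of all reads after TMM scaling over the libraries of both lines, and tests are quasi-likelihood tests of edgeR adjusted over all genes, with an adjusted p under 0.05 called.

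AREG (amphiregulin) had 322 ± 32.6 CPM in T3M-4 (SD, n = 4, from 294 to 366) and 51.6 ± 26.4 in AsPC-1 (n = 5, from 25.2 to 88.2). The log2 difference was 2.64 (SE 0.35, edgeR adjusted p 0.000112). HBEGF had 47.3 ± 5.11 CPM (from 43.6 to 54.8) against 5.09 ± 2.85 (from 2.71 to 9.74), a log2 difference of 3.22 (SE 0.35, edgeR adjusted p 2.89e-05). EREG (epiregulin) had 47.8 ± 2.39 against 20.6 ± 6.21 CPM, a log2 difference of 1.22 (SE 0.22). TGFA was close to the threshold in all reads (27.8 ± 8.68 against 20.3 ± 1.21 CPM, log2 difference 0.45, edgeR adjusted p 0.0634) and past it in T>C reads (0.72, SE 0.19, edgeR adjusted p 0.00857).

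BTC (betacellulin) had 698 reads over the 4 T3M-4 libraries and 6 over the 5 AsPC-1 libraries, a ratio of depth-scaled counts of 90.2 (95% counting interval 41.2 to 247). EPGN (epigen) had 2411 against 11 reads, a ratio of 170 (94.8 to 341). Among T>C reads BTC had 89 against 0, at least 20.7-fold higher in T3M-4 against a floor of 3 counts over the group and with an exact 95% lower limit of 16.5, and EPGN had 891 against 1 (ratio 622, interval 111 to 24598). Over all treatments AsPC-1 showed 4 T>C reads of BTC, all in 1 of 42 libraries, and 60 of EPGN in 24 libraries, while T3M-4 showed 436 in 18 of 20 libraries and 4158 in all 20. These intervals and the floor cover counting error only.

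EGFR had 471 ± 47.2 CPM of all reads in T3M-4 (from 421 to 527) and 696 ± 178 in AsPC-1 (from 448 to 840). The ranges overlapped, the log2 difference was −0.56 (SE 0.20, edgeR adjusted p 0.0369), and the call was lost in 6 of the 9 fits that left out 1 library. ERBB3 had 57.9 ± 19.0 against 115 ± 33.3 CPM (log2 difference −0.98, SE 0.27, edgeR adjusted p 0.00978). ERBB2 had 14.8 ± 7.60 against 14.8 ± 5.99 CPM and ERRFI1 20.2 ± 2.61 against 19.4 ± 8.20 CPM, differences of −0.00 (SE 0.39) and 0.06 (SE 0.28) on the log2 scale. AsPC-1 DMSO libraries were all of batch 1 of the labels and those of T3M-4 of batches 1 and 2. Within batch 1 (5 against 2 libraries) AREG, EREG and HBEGF were called at 2.71, 1.22 and 3.28, TGFA was called at 0.68 (edgeR adjusted p 0.0156), and EGFR (−0.49, edgeR adjusted p 0.182) and ERBB3 (−0.66, edgeR adjusted p 0.0836) were not. In total RNA 7 of the 10 members were called, beside 55.7% of 15464 genes. In T>C reads 5 of 9 were called (AREG, EREG, HBEGF, TGFA and EPGN, all higher in T3M-4), beside 48.4% of 13044 genes. Shares of called members this near to those of all genes say nothing particular about the list, and with 1 line of each kind they compare cultures and not subtypes. In the T3M-4 to AsPC-1 comparison the median log2 difference was 0.72 over the members and 0.11 over all genes in T>C reads.

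**Figure D1:**
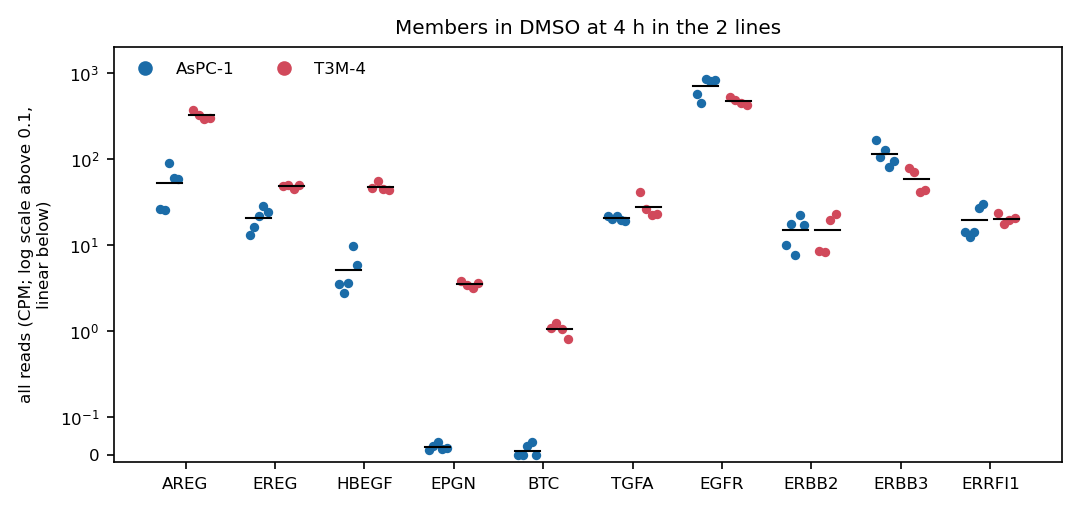
CPM of all reads (vertical axis, logarithmic above 0.1 CPM and linear below) for each member in the 5 AsPC-1 and 4 T3M-4 libraries in DMSO at 4 h. Points are libraries and short lines their means. The T3M-4 points run from 294 to 366 for AREG and from 43.6 to 54.8 for HBEGF.

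The share of a gene's reads with T>C conversions (labelled share) spread the members widely. ERRFI1, HBEGF and EREG were among the genes with the highest shares, and ERBB2 and ERBB3 were below the median gene. In DMSO at 4 h the mean labelled share of ERRFI1 was 57.1% in AsPC-1 and 73.2% in T3M-4, above 99.3% and 98.7% of genes. HBEGF had 52.3% and 71.1% (above 98.4% and 98.3% of genes) and EREG 49.6% and 60.4% (above 97.7% and 95.6%). The median gene had 15.5% in AsPC-1 (11976 genes) and 17.7% in T3M-4 (13730 genes).

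AREG had 34.3% and 36.5%, TGFA 23.5% and 32.3%, and EPGN 36.9% in T3M-4. Receptors were lower, with EGFR at 17.6% and 26.7%, ERBB3 at 9.78% and 14.3% and ERBB2 at 7.53% and 10.7%. BTC, at a mean of 12.3% in T3M-4, was the ligand with a mean below the median gene. Its 4 libraries ran from 5.29% to 26.0% on 9 to 50 T>C reads each, so that place is not secure. To compare lines and treatments, the log2 odds that a read carries a conversion were centred on the median gene of each library and tested with limma (relative labelled share). Between the lines 15.9% of 11504 genes were called, among them EGFR (0.58, SE 0.16, limma adjusted p 0.0395) and ERRFI1 (0.84, SE 0.15, limma adjusted p 0.00842), both higher in T3M-4. The EGFR call was lost in 7 of the 9 fits without 1 library, and within batch 1 neither EGFR (0.31, limma adjusted p 0.256) nor ERRFI1 (0.77, limma adjusted p 0.0514) was called.

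AsPC-1 libraries fell into 3 sets by the 500 genes most variable within treatments (sets A with 17, B with 17 and C with 8 libraries). AREG was not one of those genes but ranked 833 of 9454 by the same variance. Its levels by set are therefore a description and no independent result. In control libraries AREG had from 44.1 to 81.2 CPM of T>C reads in set A (median 59.9, n = 8), from 141 to 293 in set B (median 189, n = 7) and from 74.0 to 242 in set C (median 146, n = 4). Sets A and B did not overlap in AREG, and for how many other genes this holds was not counted. Set C held the libraries of replicate number 2 at 4 h other than NVP2, so set and replicate cannot be told apart there. The sets were defined from these data and are not groups of the study. From here on, levels are CPM of T>C reads after TMM scaling over the libraries of 1 line, which compare a gene with other new RNA and not with the amount per cell, so fewer cells and less RNA per cell cannot be told apart.

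**Figure D2:**
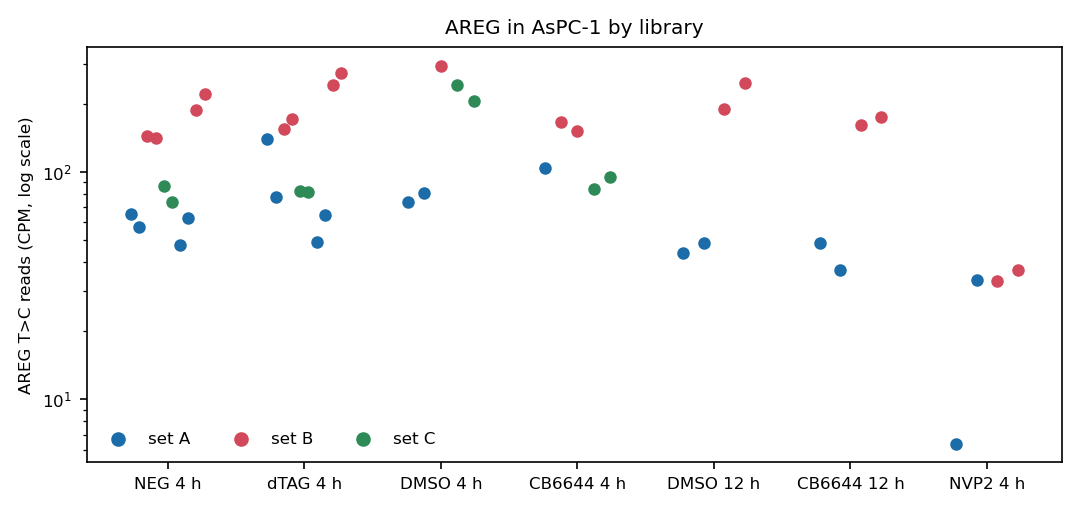
AREG in CPM of T>C reads (vertical axis, logarithmic) in each AsPC-1 library by treatment (horizontal axis), coloured by set A, B or C (NEG is dTAG-NEG and dTAG is dTAGv1). Leaving NVP2 aside, libraries of set A lie between 37.1 and 140 CPM and those of set B between 141 and 293 CPM, with set C across both.

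Degradation of KLF5 was compared to learn which new transcripts move within hours. In AsPC-1, TGFA fell and ERRFI1 rose, while the other 6 members tested did not pass the threshold. The 2 called of 8 tested stand beside 2.4% of 11696 genes. The median log2 change was −0.05 over the members and 0.03 over all genes.

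TGFA had 11.1, 18.3, 15.2, 17, 26.1, 30.4, 12.8, 15.5, 22.3 and 32.2 CPM in the 10 dTAGv1 libraries, a median of 17.7, and from 29.4 to 71.3 CPM (median 38.6) in the 10 dTAG-NEG libraries. Of the dTAGv1 libraries 8 lay below all controls. The change was −1.05 on the log2 scale (SE 0.20, edgeR adjusted p 0.00305), a level 2.07-fold lower. By replicate number it was −1.32, −0.45 and −1.15.

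ERRFI1 had from 59.0 to 167 CPM after dTAGv1 (median 105, n = 10) and from 36.6 to 86.3 (median 50.6, n = 10) in dTAG-NEG. Of the dTAGv1 libraries 5 lay above all controls and the rest overlapped them. The change was 0.94 (SE 0.22, edgeR adjusted p 0.0221), a level 1.92-fold higher, and it was 1.06, 0.53 and 0.94 by replicate number.

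With replicate numbers as a block, TGFA changed by −1.08 (edgeR adjusted p 0.00148) and ERRFI1 by 0.93 (edgeR adjusted p 0.000603). Neither call held without replicate 1 (edgeR adjusted p 0.227 and 0.280), in batch 1 alone (0.0607 and 0.0953) or in batch 2 alone (0.325 and 0.0678), where the changes were −0.91 to −1.18 and 0.87 to 0.93. When T>C counts were scaled by the totals of all reads, which moved the median of all genes to −0.22, TGFA was called and ERRFI1 was not (0.66, edgeR adjusted p 0.0736).

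EGFR had from 866 to 1592 CPM after dTAGv1 and from 980 to 1629 in controls, a change of 0.02 (SE 0.13). AREG had from 49.0 to 271 CPM (median 111) against 47.5 to 221 (median 80.2), a change of 0.31 (SE 0.33), with the sets described above in both groups. EREG changed by 0.20 (SE 0.16), HBEGF by −0.13 (SE 0.19), ERBB2 by −0.39 (SE 0.25) and ERBB3 by −0.30 (SE 0.15, edgeR adjusted p 0.463), all short of the threshold. In total RNA TGFA was called again (−0.75, edgeR adjusted p 0.0153) and ERRFI1 was not (0.81, edgeR adjusted p 0.107). In relative labelled share 0 members were called, beside 0.66% of 11818 genes, and TGFA changed by −0.33 (SE 0.14, limma adjusted p 0.335, 9 against 10 libraries).

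In T3M-4 the same comparison called 0 of 10 members, beside 0.834% of 13424 genes, with edgeR and with 4 against 4 libraries. At an unadjusted p under 0.05, 3 members and 957 genes remained, and DESeq2 called those 3 members among 348 genes. The 3 were TGFA, HBEGF and ERRFI1, and in each of them the dTAGv1 and dTAG-NEG libraries did not overlap, as in 5.71% of all genes tested. The median log2 change was 0.05 over the members and 0.01 over all genes.

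TGFA had 40.5, 37.0, 26.7 and 31.1 CPM after dTAGv1 and 66.0, 63.4, 57.2 and 68.4 in dTAG-NEG. Every treated library was lower, with a change of −0.92 (SE 0.19, edgeR adjusted p 0.0548). With the replicate block, where the number is also the batch, TGFA passed the threshold (−0.94, edgeR adjusted p 0.00772). Fitted within 1 batch (2 against 2 libraries) it changed by −0.73 (edgeR adjusted p 0.346) and −1.12 (edgeR adjusted p 0.0889).

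HBEGF, a ligand made as a membrane-bound precursor, had 134, 132, 124 and 133 CPM after dTAGv1 and 221, 172, 273 and 288 in dTAG-NEG. The treated libraries lay close together and all below the controls (−0.88, SE 0.19, edgeR adjusted p 0.0837). The change was −0.56 in replicate 1 and −1.12 in replicate 2, and with the replicate block it was −0.86 (edgeR adjusted p 0.0145). In batch 2 alone HBEGF was called (−1.13, edgeR adjusted p 0.0322) and in batch 1 alone it was not (edgeR adjusted p 0.542).

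ERRFI1 had 181, 207, 186 and 228 CPM after dTAGv1 and 119, 117, 136 and 138 in dTAG-NEG. All treated libraries were higher (0.64, SE 0.16, edgeR adjusted p 0.147), by 0.71 and 0.60 in the 2 replicate numbers, and the replicate block gave 0.65 (edgeR adjusted p 0.0214), a call lost when libraries were summed per replicate number in the same fit (edgeR adjusted p 0.082). In total RNA it had from 32.1 to 41.1 CPM against 22.9 to 23.4 and was not called (0.65, edgeR adjusted p 0.439). The share of all genes that separate in total RNA was not counted.

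EPGN, read well in this line alone, had 11.6, 12.5, 16.2 and 15.2 CPM after dTAGv1 and 8.01, 8.44, 12.7 and 11.4 in dTAG-NEG, which overlapped over the replicate numbers (0.44, SE 0.24). Within each number both dTAGv1 libraries were higher, by 0.52 and 0.37. In all reads EPGN had from 4.71 to 5.85 CPM against 3.33 to 4.39 and was not called, beside 3 genes called. How many genes separate in all reads, or within each replicate number, was not counted. AREG (0.09, SE 0.17), EREG (0.17, SE 0.20), EGFR (0.02, SE 0.18), ERBB2 (−0.09, SE 0.24) and ERBB3 (0.02, SE 0.40) stayed short of the threshold. In relative labelled share 0 members were called, beside 0.0756% of 13228 genes. The labelled share of TGFA was 23.3%, 25.2%, 23.8% and 21.6% after dTAGv1 and 29.8%, 30.6%, 32.4% and 35.5% in dTAG-NEG. Its relative change of −0.72 (SE 0.17, limma adjusted p 0.263) was not called, and how many genes separate in this measure was not counted.

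**Figure D3:**
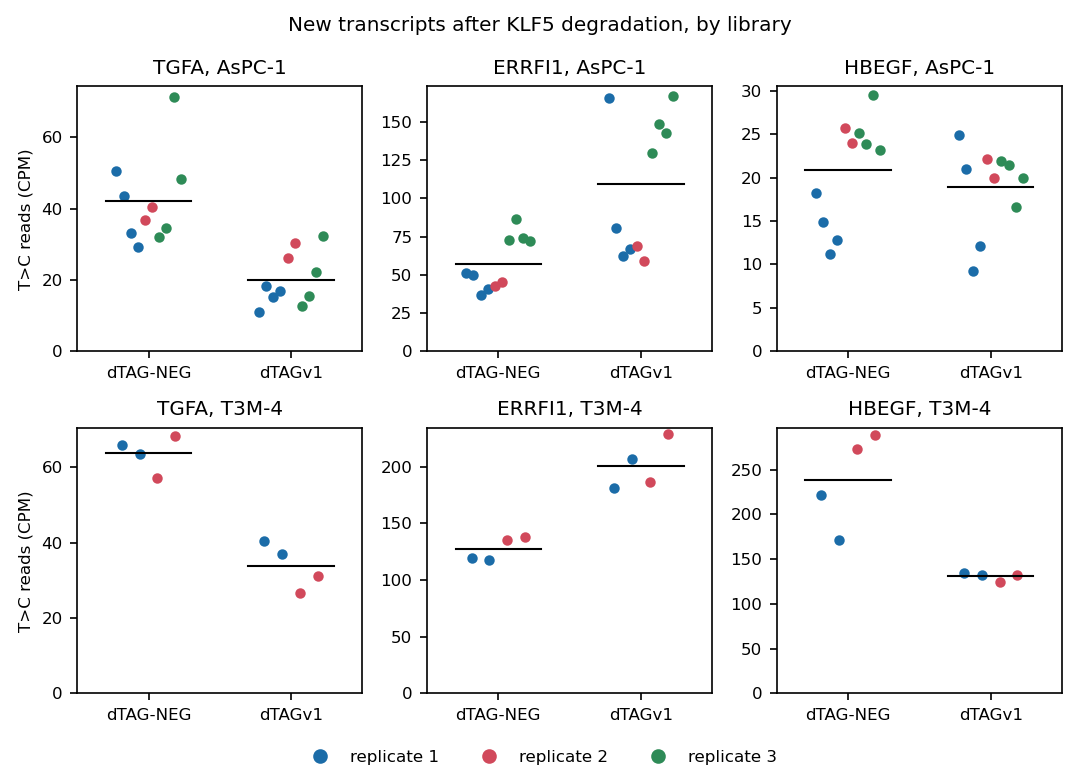
T>C reads in CPM (vertical axes, from 0) of TGFA, ERRFI1 and HBEGF in each dTAG-NEG and dTAGv1 library of AsPC-1 (upper row, n = 10 each) and T3M-4 (lower row, n = 4 each). Points are libraries coloured by replicate number and short lines are group means. In T3M-4 all dTAGv1 points of TGFA (26.7 to 40.5) lie below the controls (57.2 to 68.4).

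Whether the lines differ in their response was tested as an interaction. Of 14088 genes 0.0426% were called and 0 of 10 members, with 824 genes and 1 member at an unadjusted p under 0.05. That member was HBEGF, with a change of −0.13 in AsPC-1 and −0.88 in T3M-4, a difference of −0.73 (SE 0.32, unadjusted edgeR p 0.0293, adjusted p 0.834). The differences of TGFA (0.15, SE 0.33) and ERRFI1 (−0.28, SE 0.37) were within their errors. A p short of the threshold does not show that the lines responded alike.

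After CB6644, none of the members was called in either line or at either time. In AsPC-1 at 4 h edgeR called 0% of 11649 genes, with 482 genes and 1 member at an unadjusted p under 0.05, and DESeq2 called 1 gene. The member was ERRFI1, with 91.0, 41.5, 46.4, 51.1 and 54.1 CPM after CB6644 and 79.7, 64.5, 73.7, 162 and 174 in DMSO. All but 1 of the CB6644 libraries were below all DMSO libraries (−0.95, SE 0.32, edgeR adjusted p 0.979). The change was −0.28 in replicate 1 and −1.66 in replicate 2, whose DMSO libraries held the highest values, so the size rests on replicate 2.

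The labelled share of ERRFI1 was 49.0%, 37.4%, 41.2%, 48.0% and 46.5% after CB6644 and 59.8%, 58.1%, 57.4%, 55.8% and 54.6% in DMSO. The share of whole libraries was lower too, from 8.23% to 8.90% after CB6644 and from 9.36% to 10.6% in DMSO. How many genes separate in this measure was not counted. Relative to the median gene it differed by −0.48 (SE 0.14, unadjusted limma p 0.00714), short of the threshold after adjustment. In relative labelled share limma called 0.00845% of 11830 genes and 0 members, with 954 genes and 2 members (ERRFI1 and EREG) at an unadjusted p under 0.05.

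AREG had 104, 166, 152, 84.4 and 94.7 CPM after CB6644 and 73.6, 81.2, 293, 242 and 206 in DMSO, which overlapped (−0.56, SE 0.37, with −0.08 and −1.32 in the 2 replicate numbers). DMSO library 1.2 belonged to set A and CB6644 library 1.2 to set B. Changes of the other members ran from −0.22 (HBEGF, SE 0.42) to 0.50 (ERBB2, SE 0.42), with EGFR at 0.07 (SE 0.17). The median was −0.19 over the members and −0.01 over all genes.

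At 12 h 0% of 12204 genes were called in T>C reads (473 at an unadjusted p under 0.05, 26 by DESeq2) and 0.0162% of 12381 genes in relative labelled share. Changes of the members ran from −0.32 (AREG, SE 0.66) to 0.10 (EREG, SE 0.27). EGFR had a change of −0.28 (SE 0.18) and ERRFI1 of −0.23 (SE 0.19). The median over the members was −0.04, beside −0.01 over all genes.

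In T3M-4, CB6644 gave 0% of 13444 genes in T>C reads (569 at an unadjusted p under 0.05, 7 by DESeq2) and 0% of 13313 genes in relative labelled share (560 at an unadjusted p under 0.05 with limma). ERBB2, the receptor without a known ligand, had 15.0, 21.3, 20.1 and 20.3 CPM after CB6644 and 10.2, 5.84, 13.4 and 16.0 in DMSO. The groups overlapped by 1 library, with a change of 0.76 (SE 0.29, edgeR adjusted p 0.994). AREG changed by −0.34 (SE 0.25) and EGFR by −0.24 (SE 0.28), with −0.68 and −0.12 for AREG and −0.78 and 0.10 for EGFR in the 2 replicate numbers. The difference between the lines was called for 0% of 13963 genes (511 at an unadjusted p under 0.05) and for 0 members.

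The library-wide share of T>C reads had a mean of 10.1% in DMSO and 1.57% after NVP2 in AsPC-1, and of 12.4% and 2.24% in T3M-4. None of the libraries was a control without 4-thiouridine, so background among the T>C reads was not tested. Levels after NVP2 are relative to the few T>C reads that remained. On that scale AREG, EREG and ERRFI1 fell in both lines, and HBEGF and EPGN fell in T3M-4. TGFA, EGFR and ERBB2 did not pass the threshold in either line. In AsPC-1 4 of 8 members were called, beside 30.5% of 11498 genes, and in T3M-4 5 of 9, beside 26.7% of 12242 genes. The median log2 change of the members was −0.86 in AsPC-1, with −0.05 over all genes, and −1.78 in T3M-4, with −0.12 over all genes. Libraries of NVP2 and DMSO did not overlap for 3 of 8 members in AsPC-1, beside 28.6% of genes, and for 5 of 9 in T3M-4, beside 34.8%.

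In AsPC-1 ERRFI1 had 14.9, 18.2, 13.6 and 10.1 CPM after NVP2, below all 5 DMSO libraries given above (−2.89, SE 0.39, edgeR adjusted p 0.000353, 7.39-fold lower). AREG had 6.39, 33.5, 33.3 and 37.2 CPM, also below all DMSO libraries (−2.64, SE 0.55, edgeR adjusted p 0.00422, 6.22-fold lower). EREG had 13.2, 29.8, 13.6 and 20.8 CPM against 63.9, 78.0, 104, 137 and 114 in DMSO, again without overlap (−2.29, SE 0.34, edgeR adjusted p 0.000655). These NVP2 levels rest on 16 to 39 T>C reads per library for ERRFI1, 15 to 72 for AREG and 29 to 64 for EREG.

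HBEGF had 2.13, 9.31, 11.3 and 20.2 CPM against 15.7, 11.2, 19.2, 61.1 and 32.9, which overlapped (−1.35, SE 0.62, edgeR adjusted p 0.119). Its NVP2 libraries held from 5 to 32 T>C reads. ERBB3 had 199, 293, 202 and 127 CPM against 165, 98.5, 117, 58.7 and 113, an overlap with 1 NVP2 library. ERBB3 rose by 0.96 (SE 0.31, edgeR adjusted p 0.0351) but was −2.26 when T>C counts were scaled by the totals of all reads, and its call was lost in 7 of the 9 fits without 1 library (edgeR adjusted p up to 0.112). The NVP2 libraries of AsPC-1 were of batch 2 and the DMSO libraries of batch 1, so batch and treatment cannot be told apart in this comparison. With the dTAG-NEG libraries of replicate 3, which are of batch 2, as controls, the same 4 members were called, with AREG at −2.13, EREG at −1.49, ERRFI1 at −2.32 and ERBB3 at 1.48.

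In T3M-4 AREG had 167, 125, 61.6 and 81.3 CPM after NVP2 and 878, 797, 1035 and 1054 in DMSO. The groups were far apart (−3.07, SE 0.35, edgeR adjusted p 0.000417, 8.40-fold lower). HBEGF had 85.3, 74.6, 12.7 and 23.5 CPM against 202, 271, 302 and 309 (−2.41, SE 0.54, edgeR adjusted p 0.00873).

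EREG had 95.0, 92.3, 41.8 and 33.9 CPM after NVP2 and 194, 207, 246 and 286 in DMSO (−1.78, SE 0.38, edgeR adjusted p 0.00707). ERRFI1 had 42.2, 24.0, 19.0 and 22.6 CPM against 124, 91.8, 119 and 139 (−2.09, SE 0.33, edgeR adjusted p 0.00162). In both, as in AREG and HBEGF, every NVP2 library was below every DMSO library, and the changes were larger in replicate 2 (batch 2) than in replicate 1, with −4.04 against −1.56 for HBEGF and −3.86 against −2.52 for AREG. EPGN had 1.76, 4.85, 2.61 and 0.435 CPM against 8.87, 8.39, 11.6 and 12.5 (−2.0, SE 0.64, edgeR adjusted p 0.04), which rests on 35 T>C reads after NVP2 and was lost in 5 of the 8 fits without 1 library (edgeR adjusted p up to 0.107).

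TGFA had from 52.2 to 75.0 CPM after NVP2 and from 56.1 to 86.5 in DMSO in T3M-4, a change of −0.04 (SE 0.27), and −0.37 (SE 0.28) in AsPC-1. EGFR changed by 0.26 (SE 0.21) in AsPC-1 and by −0.17 (SE 0.25) in T3M-4, and ERBB2 by 0.39 (SE 0.77) and −0.21 (SE 0.51). Scaling by the totals of all reads moved the median of all genes to −3.26 in AsPC-1 and −3.09 in T3M-4, and all 8 and all 9 members tested were then called lower, along with 10823 and 10671 genes. In total RNA EREG, ERRFI1 and HBEGF were called lower in AsPC-1 and AREG, ERRFI1 and HBEGF in T3M-4.

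**Figure D4:**
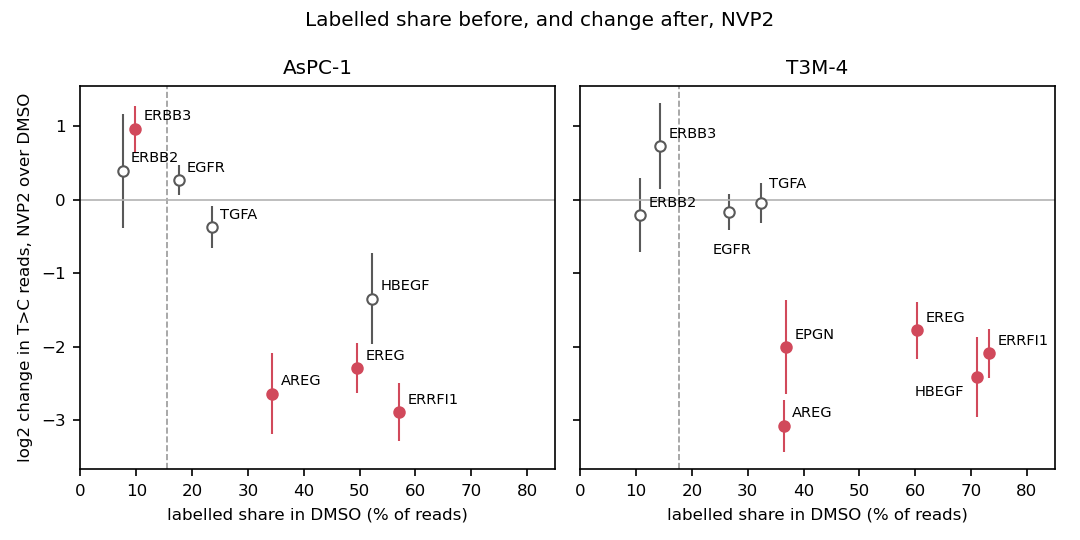
Mean labelled share in DMSO (horizontal axis, % of reads) against the log2 change in T>C reads after NVP2 (vertical axis, bars SE) for each member tested in AsPC-1 (left) and T3M-4 (right). The dashed line is the median gene (15.5% and 17.7%) and filled points were called. To the right of the line lie both the called ERRFI1, EREG and AREG (−1.78 to −3.07) and the uncalled TGFA (−0.37 and −0.04) and EGFR (0.26 and −0.17). HBEGF, also there, was called in T3M-4 alone, and EPGN was tested and called in T3M-4 alone. T>C counts of the DMSO libraries enter both axes, so the axes are not independent.

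Relative to the median gene, the labelled share was called lower for 5 members in T3M-4 and 1 in AsPC-1. In T3M-4 it was also lower, but not called, for BTC (−0.63), ERBB2 (−0.32) and EGFR (−0.01). It was higher there, and not called, for ERBB3 (0.32) and TGFA (0.16). In AsPC-1 it was lower, but not called, for ERBB2 (−0.36) and HBEGF (−0.30), and for AREG and EREG given below. ERBB3 (0.52, SE 0.27), EGFR (0.49, SE 0.21) and TGFA (0.06, SE 0.28) were higher in AsPC-1 and not called. In T3M-4 the share of AREG was 1.75%, 1.96%, 0.778% and 1.05% after NVP2 and from 34.0% to 38.8% in DMSO. In relative labelled share 24.9% of 13049 genes were called in T3M-4, with AREG at −1.96 (SE 0.29), EREG at −1.82 (SE 0.32), HBEGF at −2.15 (SE 0.44), ERRFI1 at −2.11 (SE 0.30) and EPGN at −1.77 (SE 0.52, limma adjusted p 0.0383, and 0.05 with the replicate block). In AsPC-1 27.9% of 11702 genes were called and, of the members, ERRFI1 (−1.19, SE 0.18, limma adjusted p 0.00207). AREG (−1.09, limma adjusted p 0.0757) and EREG (−0.89, limma adjusted p 0.0724) did not pass the threshold there.

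The response to NVP2 differed between the lines for 0.851% of 13159 genes and for 0 of 9 members. The AsPC-1 NVP2 libraries were of batch 2 and their DMSO libraries of batch 1, while both groups of T3M-4 spanned both batches. A difference between lines therefore cannot be told apart from batch here. EPGN, with 1 T>C read in the AsPC-1 DMSO libraries, had an edgeR adjusted p of 0.0602 and no usable size. HBEGF, at −1.35 in AsPC-1 and −2.41 in T3M-4, differed by −1.08 (SE 0.85).

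**Figure D5:**
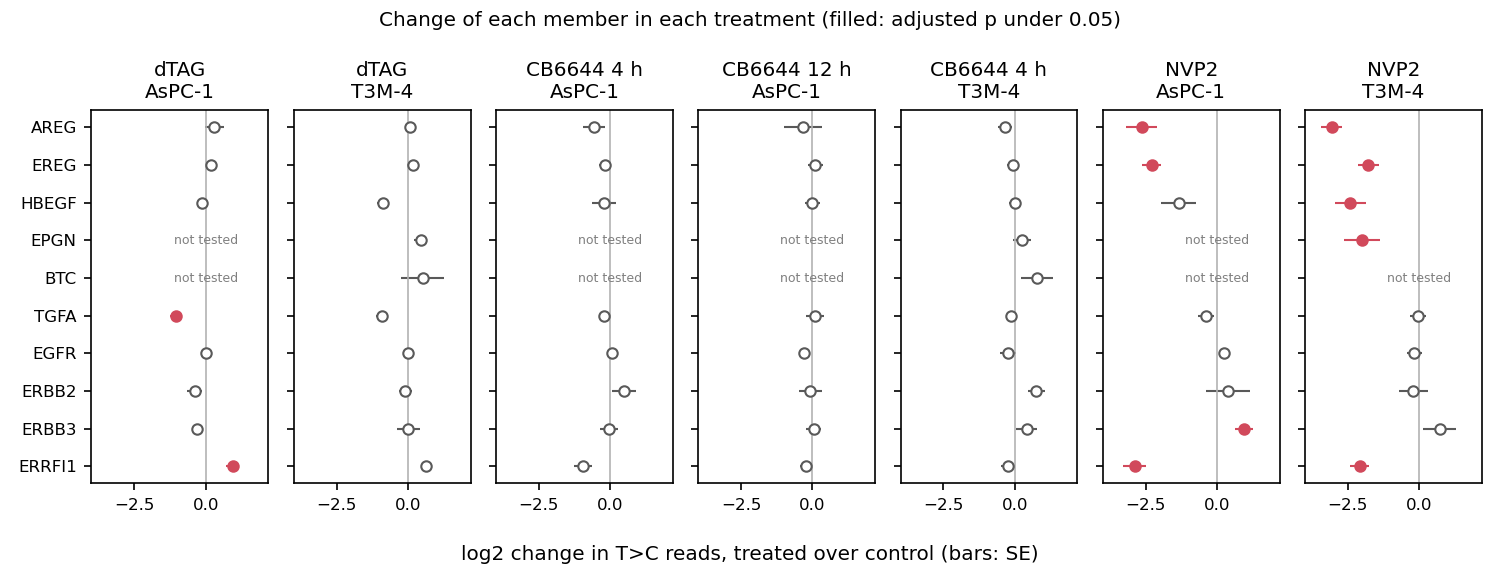
Log2 change in T>C reads of each member (rows) in the 7 treatment comparisons (panels), treated over control, with SE as bars (dTAG is dTAGv1 over dTAG-NEG). Filled points were called, which are TGFA and ERRFI1 after dTAGv1 in AsPC-1 and 4 and 5 members after NVP2 in AsPC-1 and T3M-4.

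Of 48 other genes of the ERBB pathway, which hold further ligands, sheddases, adaptors, the RAS to ERK and PI3K branches and negative regulators, 0 were called after dTAGv1 or CB6644 in either line. Over all genes, T>C reads gave 2.4% called in AsPC-1 and 0.834% in T3M-4 after dTAGv1, and 0% after CB6644. After NVP2 in AsPC-1, 7 rose and 8 fell of 42 tested, with a median of 0.03, beside the 30.5% of all genes called. Those with the smallest p were PTPN12, a phosphatase (1.73, SE 0.21), SOCS3, a cytokine-induced feedback inhibitor (−3.51, SE 0.66), the PI3K subunit PIK3CA (1.36, SE 0.27), the adaptors SHC1 (0.99, SE 0.20) and CRKL (−1.35, SE 0.28), and the sheddase ADAM10 (1.60, SE 0.32). After NVP2 in T3M-4, 9 rose and 6 fell of 46, with a median of 0.19, beside the 26.7% of all genes called. Among them were SOCS3 (−4.76, SE 0.44), SHC1 (1.98, SE 0.31), LRIG3 (−3.74, SE 0.60), CRKL (−1.98, SE 0.38), MAP2K1 (1.45, SE 0.30) and PIK3CA (1.27, SE 0.27). As for the members, these rises are relative to the remaining T>C reads, and counts this near to those of all genes say nothing particular about the pathway list.

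PTPN12 was the 1 pathway gene whose response to NVP2 differed between the lines (1.73 in AsPC-1 and −2.16 in T3M-4, difference −3.90, SE 0.58, edgeR adjusted p 0.00218). As for the members, batch cannot be told apart from treatment in the AsPC-1 part of that difference. Between the untreated lines 11 pathway genes were higher and 12 lower in T3M-4 of 45 tested in T>C reads, with a median of −0.23, near the 48.4% called over all genes. The neuregulin gene NRG1, whose product binds ERBB3, had 91988 T>C reads in the T3M-4 DMSO libraries and 7 in those of AsPC-1, a ratio of 9175 (95% counting interval 4453 to 22821). In all reads it had 206287 against 76, a ratio of 2104 (1681 to 2671). SOCS3 was higher in T3M-4 (2.79, SE 0.22), and PTPN12 (−2.04, SE 0.23), PIK3CB (−1.32, SE 0.21), CBL (−1.27, SE 0.23) and BRAF (−1.03, SE 0.17) were lower.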

How the data were processed

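SLAM-seq counts were available for 62 libraries of AsPC-1 and T3M-4. Per the labels and the study's methods, the authors mapped 3′ end reads to GENCODE v44 3′ untranslated exons on hg38 with slamdunk at its default settings. The deposited values are raw counts per gene of T>C reads and of all reads, for each library. Of the deposited columns, 18 were empty and unnamed, and 1 all-reads column (an AsPC-1 dTAGv1 library) was not used because it repeats another library's T>C counts, so that library has no labelled share. T>C counts were tested with edgeR 4.0.16 (quasi-likelihood, filterByExpr, TMM, R 4.3.3) within the groups compared, with Benjamini-Hochberg adjustment over all genes tested and a threshold of 0.05. Relative labelled shares were log2 odds with a pseudocount of 0.5, over genes with at least 20 reads in every library, centred per library and tested with limma 3.58.1. Changes within a replicate number are log2 ratios of group means of CPM + 0.5, with no test. DESeq2 1.42.0, other scalings and filters, a replicate block, batches alone and left-out libraries were alternatives. Figures were drawn with matplotlib 3.10.9.

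The total depth per library is given in the report. Counting intervals are exact at 95%, and the floor is 3 counts. Libraries of the same replicate number deviated together in T>C reads, with correlations of 0.411, 0.634 and 0.467 for dTAGv1 in AsPC-1 and from 0.33 to 0.65 at 12 h. In T3M-4 the number is also the batch of the labels, with 0.530, 0.504 and 0.316 for dTAGv1, CB6644 and NVP2. NVP2 in AsPC-1 could not be blocked, since its controls are of another batch.

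The members and lists were chosen with earlier results of these data known. All members are named, as are at most 6 other pathway genes of smallest p among those called in a comparison, and for AREG, EREG, EGFR and ERRFI1 the 2 genes of highest correlation in each line, of which those for EREG in AsPC-1 are not reported here. AsPC-1 sets came from Ward clustering of the 500 genes most variable within groups. The scripts were tested on simulated data.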

Additional observations from a re-analysis of the deposited data

Results flagged for a closer look

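Single libraries stood apart from the rest of their group in 14 of the 212 groups of 4 to 10 libraries examined (6.60%) by the gap to the nearest library over the range of the group. Chance flags about 1 in 20 groups.

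In CPM of T>C reads, AsPC-1 CB6644 library 1.1 at 4 h had 199.6 of ERBB3, with 73.2 to 88.8 in the others, and 91.0 of ERRFI1, with 41.5 to 54.1 in the others. AsPC-1 dTAG-NEG library 3.3 had 71.3 of TGFA, the others 29.4 to 50.5. AsPC-1 NVP2 library 1.1 had 6.39 of AREG, the others 33.3 to 37.2. T3M-4 dTAG-NEG library 1.1 had 803 of EGFR, the others 1054 to 1081, and dTAG-NEG library 2.1 had 21.6 of ERBB3, the others 82.1 to 89.2. T3M-4 NVP2 library 1.1 had 2.64 of BTC, the others 0 to 0.435.

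In labelled share, AsPC-1 DMSO library 2.1 at 4 h had 6.70% for ERBB3, the others 10.1% to 11.3%, and AsPC-1 NVP2 library 1.2 had 5.15% for AREG, the others 1.33% to 1.71%. The other flags were in T3M-4. CB6644 library 2.1 had 62.4% for EREG, the others 58.0% to 58.7%. The dTAGv1 library 2.1 had 79.3% for ERRFI1, the others 74.3% to 74.7%. The dTAG-NEG library 2.1 had 6.45% for ERBB3, the others 17.8% to 18.9%. NVP2 library 1.2 had 6.84% for TGFA, the others 3.65% to 4.13%, and NVP2 library 1.1 had 4.89% for BTC, the others 0% to 0.490%.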

How the results depend on the processing

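Of the alternative values for counts of called members, 261 stayed within 1.5 times and 30 moved. For single members 630 kept direction and side of the threshold, 54 lost the call, 26 gained it and 2 changed sign. These were ERBB3 after NVP2 in AsPC-1 when scaled by the totals of all reads (−2.26) and the EGFR labelled share there without centring (−3.01).

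For dTAGv1 in AsPC-1, 2 members and 281 genes were called, against 1 and 111 in all reads, 1 and 941 scaled by the totals of all reads, 0 and 103 in batch 1 alone, 0 and 16 in batch 2 alone, and 447 genes with the replicate block and 496 with DESeq2. Without centring 6 members were called in labelled share, with the median of all genes at −0.33. For dTAGv1 in T3M-4, 0 members and 112 genes were called, against 3 and 354 with the replicate block, 3 and 348 with DESeq2, 2 and 292 with libraries summed per replicate number and the block (HBEGF and TGFA), 1 member in batch 2 alone, 38 genes in batch 1 alone and 3 in all reads. For NVP2, scaling by the totals of all reads called 8 members in AsPC-1 and 9 in T3M-4, all reads called 3 in T3M-4 (807 genes, and 1667 in AsPC-1), and no centring of the labelled share called 8 and 10, with medians of −3.42 and −3.59. A pseudocount of 5 called 3 members in labelled share in AsPC-1. Between the lines, 2 members were called in labelled share, 4 without centring, 5 with dTAG-NEG in place of DMSO and 0 in batch 1 alone.

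Leaving out 1 library or replicate number at a time gave 0 to 2 members for dTAGv1 in AsPC-1, 3 to 4 for NVP2 in AsPC-1 and 4 to 5 in T3M-4 (labelled share 1 to 3 and 4 to 5), 0 to 1 for the difference of the NVP2 effect between the lines, and 5 to 6, 6 to 7 and 1 to 3 between the lines in T>C reads, all reads and labelled share. It gave 0 in the other comparisons. The replicate block gained the 3 members given above for dTAGv1 in T3M-4 and lost EPGN in the NVP2 labelled share of T3M-4 (limma adjusted p 0.05). It changed no other member's call. For the difference of the dTAGv1 effect between the lines it called 29 genes where 6 were called without it. After seeing the data, replicate 2 was left out for CB6644 at 4 h in AsPC-1 (ERRFI1 −0.28) and DMSO replicate 2 for NVP2 in AsPC-1 (3 members, with ERBB3 at 0.79, edgeR adjusted p 0.139). The causes of these shifts were not tested. NVP2 libraries held few T>C reads, which limits the precision there.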

Other observations

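The genes whose T>C levels ran most like those of AREG, EGFR and ERRFI1 in both lines and of EREG in T3M-4 are given as a description over libraries without NVP2, which share cultures, batches and depth. In AsPC-1 (38 libraries, 7932 genes) AREG ran most like RGS2 (Pearson r 0.899 on log2(CPM + 1)) and TRIB1 (0.884), EGFR like CAMK1D (0.704) and RIPOR3 (0.676), and ERRFI1 like SPRY2 (0.782) and AFF4 (0.762). In T3M-4 (16 libraries, 7909 genes) AREG ran most like SLC39A14 (0.922) and PHLDA1 (0.918), EREG like HNRNPR (0.892) and KHDRBS1 (0.851), EGFR like WDR3 (0.963) and IPO7 (0.939), and ERRFI1 like KLF6 (0.954) and SLC38A2 (0.953). None of these genes was named in both lines.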
